A study of Homo sapiens with 6 samples.

Results

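The mismatch repair genes MSH3, MSH6, MLH3, PMS1 and PMS2 were followed in AN3-CA, a cell line from a human endometrial cancer that is known for a mutated FGF receptor gene and microsatellite instability. They were taken as the probe sets annotated with exactly 1 of these 5 symbols, which gave 15 of the 49293 probe sets on the array: 7 for PMS1, 4 for MLH3, 2 for MSH3, 2 for MSH6 and 0 for PMS2. Another 3 probe sets, which name PMS2 beside its copies PMS2CL or LOC100289811, are given separately. Total RNA from 6 cultures was hybridised to Affymetrix expression arrays, 2 per group. The cells had 24 h of culture, then 18 h in serum-free medium. The groups were 300 nM AZD4547, an inhibitor of FGF receptor kinases, together with 10 ng/mL acidic fibroblast growth factor (aFGF), the same dose of aFGF with DMSO as vehicle, and DMSO alone. The vehicle was 0.5% DMSO, and the amount of DMSO in the cultures with AZD4547 is not in the labels. No culture had AZD4547 without aFGF, and 1 line, 1 dose of each agent and 1 time were studied. The labels call the samples of a group biological replicates and name 6 dishes of 1 line, so the p-values measure the spread between such dishes, which may be technical.

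Mismatch repair removes the errors that DNA polymerases leave behind. A MutS heterodimer finds the error: the one with MSH6 binds base mispairs and very short loops, and the one with MSH3 binds larger insertion or deletion loops. A MutL heterodimer follows. The one with PMS2 nicks the new strand, the one with MLH3 acts mainly in meiotic crossing over, and the part of PMS1 in repair is less clear. The exonuclease EXO1 then removes the nicked strand, and the clamp PCNA, its loader RFC, the single-strand binding protein RPA, DNA polymerase delta and a ligase fill and close the gap. Most of these later factors also serve DNA replication. Loss of this system gives microsatellite instability, which is common in endometrial cancer.

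The promoters of the MutS genes are shown because the MSH6 probe sets carried calls and the MSH3 probe sets did not. Each window runs from 250 bases before to 50 bases after the start of the gene, in RefSeq sequence of GRCh38.p14. The MSH6 window lies at chr2:47782895-47783194 on the plus strand and the MSH3 window at chr5:80654402-80654701 on the plus strand. Capitals mark TTTCCCGC, TTTCGCGC, TTTGCCGC or TTTGGCGC, letters of the type bound by E2F factors, read on either strand.
MSH6 promoter: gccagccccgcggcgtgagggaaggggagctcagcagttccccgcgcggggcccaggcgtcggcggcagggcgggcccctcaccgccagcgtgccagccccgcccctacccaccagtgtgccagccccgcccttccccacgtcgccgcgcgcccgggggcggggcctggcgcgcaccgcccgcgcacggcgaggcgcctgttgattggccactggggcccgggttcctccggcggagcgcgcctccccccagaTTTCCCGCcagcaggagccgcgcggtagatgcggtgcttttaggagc
MSH3 promoter: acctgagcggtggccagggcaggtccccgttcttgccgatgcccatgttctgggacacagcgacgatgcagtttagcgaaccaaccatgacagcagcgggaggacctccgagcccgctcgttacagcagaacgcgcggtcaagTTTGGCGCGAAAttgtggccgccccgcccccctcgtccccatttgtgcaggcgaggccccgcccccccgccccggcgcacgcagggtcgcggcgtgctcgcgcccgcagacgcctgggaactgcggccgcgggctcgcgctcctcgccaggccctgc
The MSH6 window holds 1 match, TTTCCCGC, 3 bases downstream of the start. The MSH3 window holds 2 overlapping matches on opposite strands, TTTGGCGC at 107 bases and GCGCGAAA at 103 bases upstream. PMS2 has 1 match 43 bases upstream of its start, and the windows of MLH3 and PMS1 have none of these letters. Of 35116 RefSeq promoter windows of the same length, 1164 (3.31%) hold a match. A match of letters describes the window and does not show binding.

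The values are intensities that the authors normalised by RMA, and all levels and changes below are log2 intensities or differences of their group means. Array medians lay between 2.84 and 2.89, and replicate arrays differed with an SD of log2 differences of 0.135 with AZD4547 and aFGF, 0.122 with aFGF and 0.181 with DMSO in the brighter probe sets. The table holds no detection calls, so a probe set under the median of all probe sets (2.87) is not shown to be above background. EGR1, an immediate early gene switched on by growth factors, had 3.68 and 3.82 in the AZD4547 arrays, 9.48 and 9.46 in the aFGF arrays, and 6.34 and 6.34 in the DMSO arrays. Of 3 mesenchymal markers, VIM (12.18) and ZEB1 (7.56) lay above that median and CDH2 (2.43) below it. Of 10 epithelial and endometrial markers, KRT18, ESR1 and MUC1 lay above it, and EPCAM (0.47) and CDH1 (1.15) below it. The summed linear levels of some marker lists set the aFGF arrays apart, some upward and some downward. MSH6, described below, was lowest in these arrays. The epithelial and endometrial sum was 64.9 and 67.0 with AZD4547 and aFGF, 75.3 and 76.8 with aFGF, and 69.0 and 67.3 with DMSO. The mesenchymal sum was 4509 and 4551 with AZD4547 and aFGF, 5128 and 5184 with aFGF, and 4845 and 4759 with DMSO. The fibroblast sum, with 1 of 5 markers above the median, was 22.2 and 22.9 with AZD4547 and aFGF, 18.8 and 18.5 with aFGF, and 20.5 and 23.9 with DMSO. Their part in the results below was not tested. A call is a Benjamini-Hochberg adjusted p under 0.05 in limma, adjusted over all probe sets within a comparison, on a fit of all 6 arrays. Fewer expressing cells and less RNA per cell cannot be told apart in such bulk RNA.

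Of the 15 probe sets, 8 lay above the median of all probe sets: both of MSH6, 1 of 2 for MSH3, 5 of 7 for PMS1 and 0 of 4 for MLH3. Levels of different probe sets depend on their probes and are not set against each other here. In the plot of every array, most of the bright probe sets have their lowest points in the aFGF arrays.

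**Figure D1:**
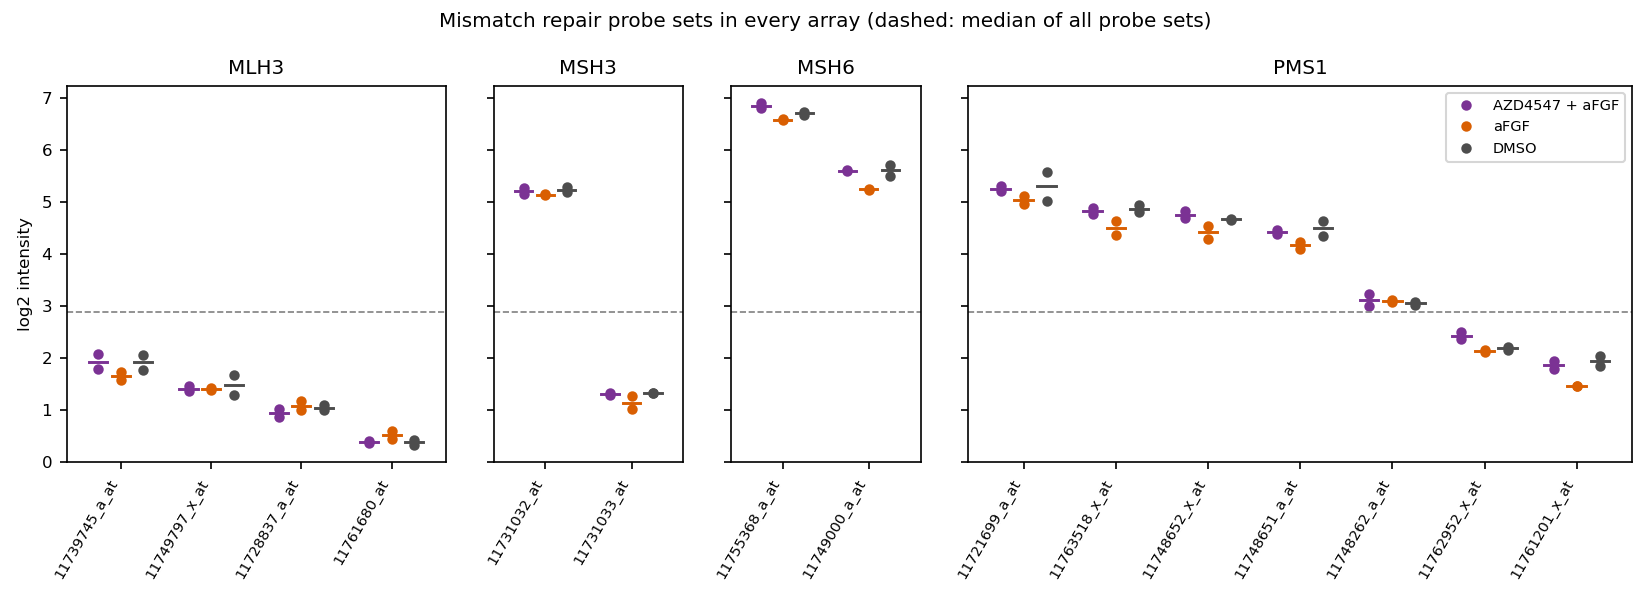
Log2 intensity (vertical axis) of each of the 15 mismatch repair probe sets (horizontal axis) in the 6 arrays. Points are arrays, short lines are means of the 2 arrays of AZD4547 with aFGF, aFGF and DMSO, and the dashed line is the median of all probe sets, 2.87. Both MSH6 probe sets have their aFGF points below all others, and all 4 MLH3 probe sets lie under the dashed line.

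MSH6, the subunit that recognises base mispairs, was lowest with aFGF on both of its probe sets. On 11749000_a_at it stood at 5.61 and 5.58 with AZD4547 and aFGF, at 5.24 and 5.23 with aFGF, and at 5.71 and 5.49 with DMSO. On 11755368_a_at it stood at 6.90 and 6.80 with AZD4547 and aFGF, at 6.57 and 6.59 with aFGF, and at 6.72 and 6.67 with DMSO. On both probe sets the aFGF arrays lay below the other 4 arrays without overlap. The order of the other groups was not shared: the AZD4547 arrays were above the DMSO arrays on 11755368_a_at and between them on 11749000_a_at.

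With aFGF over DMSO, MSH6 fell on 11749000_a_at by 0.37 on the log2 scale (SE 0.08, limma adjusted p = 0.0150). The change on 11755368_a_at was -0.12 (SE 0.06, limma adjusted p = 0.306) and was not called. The 2 probe sets thus differ in their call, and the difference between their changes was not tested. The call on 11749000_a_at was lost when DMSO replicate 1 or either aFGF array was left out (limma adjusted p up to 0.136), and the change without 1 array ran from -0.47 to -0.26. As the mean over both probe sets, MSH6 changed by -0.24 (limma adjusted p = 0.0486).

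With AZD4547 and aFGF over aFGF, MSH6 rose on both probe sets. The change was 0.27 on 11755368_a_at (1.21-fold, SE 0.06, limma adjusted p = 0.00961) and 0.36 on 11749000_a_at (1.28-fold, SE 0.08, limma adjusted p = 0.00904). The changes with single arrays left out ran from 0.22 to 0.32 for the probe set 11755368_a_at and from 0.35 to 0.37 for 11749000_a_at. The first call was lost without either aFGF array or without AZD4547 replicate 1 (limma adjusted p up to 0.113). The second was lost without any 1 of the 4 arrays of this comparison (limma adjusted p up to 0.0894), where the lone array left is assumed to vary like the other groups.

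MSH3, the subunit that recognises larger loops, showed no call in any comparison. Its brighter probe set, 11731032_at, had 5.26 and 5.15 with AZD4547 and aFGF, 5.14 and 5.12 with aFGF, and 5.28 and 5.18 with DMSO. The aFGF arrays were the lowest here too, by small margins. The change was 0.07 with AZD4547 and aFGF over aFGF (95% interval -0.10 to 0.25) and -0.10 with aFGF over DMSO (95% interval -0.28 to 0.08). The other probe set, 11731033_at, was under the median of all probe sets, with 1.32 and 1.27, then 1.25 and 1.02, and 1.33 and 1.32 in the same groups.

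PMS1, a MutL homolog, had the most probe sets, and their changes ran mostly one way. With AZD4547 and aFGF over aFGF all 7 changes were positive, from 0.03 to 0.41, and 2 of the 7 were called. With aFGF over DMSO 6 of the 7 were negative, from -0.49 to 0.04 in all, and 2 were called. The probe sets belong to 1 gene and are not independent of each other. As the mean over all 7 probe sets, PMS1 was not called in any comparison.

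Of the called PMS1 probe sets, 11763518_x_at had 4.76 and 4.87 with AZD4547 and aFGF, 4.36 and 4.63 with aFGF, and 4.80 and 4.94 with DMSO. It fell by 0.37 with aFGF over DMSO (SE 0.10, limma adjusted p = 0.0409) and rose by 0.32 with AZD4547 and aFGF over aFGF (SE 0.10, limma adjusted p = 0.0485). Its aFGF arrays lay below the other 4. The suffix _x_at marks probes that can match other transcripts. PMS1 on 11748652_x_at, with 4.82 and 4.68, 4.53 and 4.29, and 4.65 and 4.68 in the AZD4547, aFGF and DMSO arrays, rose by 0.34 with AZD4547 and aFGF over aFGF (SE 0.10, limma adjusted p = 0.0319). PMS1 on 11761201_x_at had 1.93 and 1.78, 1.45 and 1.45, and 2.04 and 1.85 in the same groups. It fell by 0.49 with aFGF over DMSO (SE 0.14, limma adjusted p = 0.0404), at levels under the median of all probe sets, and its change with AZD4547 and aFGF over aFGF was 0.41 (SE 0.14, limma adjusted p = 0.0610).

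The 2 PMS1 calls with aFGF over DMSO were each lost in 5 of 6 runs that left out 1 array, and remained only without DMSO replicate 1 for 11763518_x_at and without DMSO replicate 2 for 11761201_x_at. Without 1 array the change of 11763518_x_at ran from -0.50 to -0.24 and that of 11761201_x_at from -0.59 to -0.40. The calls with AZD4547 and aFGF over aFGF were each lost in 3 of 6 runs, without either AZD4547 array and without aFGF replicate 1 (11763518_x_at) or aFGF replicate 2 (11748652_x_at). Their changes then ran from 0.19 to 0.45 for 11763518_x_at and from 0.22 to 0.46 for 11748652_x_at. The brightest PMS1 probe set, 11721699_a_at, carried no call: it had 5.20 and 5.30 with AZD4547 and aFGF, 5.11 and 4.95 with aFGF, and 5.57 and 5.01 with DMSO. Its DMSO arrays lay 1 above and 1 below both AZD4547 arrays, and the lowest value was that of an aFGF array. PMS1 on 11748651_a_at had 4.38 and 4.46, 4.08 and 4.23, and 4.64 and 4.34, with the aFGF arrays lowest. Its changes were 0.26 with AZD4547 and aFGF over aFGF (limma adjusted p = 0.134) and -0.33 with aFGF over DMSO (limma adjusted p = 0.0857). PMS1 on 11748262_a_at averaged 3.11 ± 0.16 with AZD4547 and aFGF, 3.08 ± 0.02 with aFGF and 3.04 ± 0.03 with DMSO (SD, n = 2 each). The values of PMS1 on 11762952_x_at ran from 2.12 to 2.49, with the AZD4547 arrays highest.

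MLH3, the MutL homolog of meiotic crossing over, lay under the median of all probe sets on each of its 4 probe sets. The highest, 11739745_a_at, had 1.78 and 2.07 with AZD4547 and aFGF, 1.73 and 1.58 with aFGF, and 1.77 and 2.04 with DMSO. The others ranged from 1.28 to 1.67 (11749797_x_at), from 0.86 to 1.16 (11728837_a_at) and from 0.31 to 0.60 (11761680_at). None was called, and the changes had both signs, from -0.14 to 0.27 with AZD4547 and aFGF over aFGF. At these levels the sizes of the MLH3 changes are uncertain.

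PMS2, the endonuclease subunit, had no probe set of its own. The probe set shared with its pseudogene copy PMS2CL, 11743017_s_at, had 5.37 and 5.50 with AZD4547 and aFGF, 5.49 and 5.52 with aFGF, and 5.47 and 5.48 with DMSO. Its change was -0.07 with AZD4547 and aFGF over aFGF (95% interval -0.24 to 0.10) and 0.03 with aFGF over DMSO (95% interval -0.14 to 0.20). The probe set 11747521_s_at, shared with PMS2CL and LOC100289811, ranged from 3.86 to 4.17, and 11761599_x_at, shared with LOC100289811, from 2.37 to 2.70. None of the 3 was called, and which of the genes gave the signal cannot be told apart.

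Counted together, 3 of the 15 probe sets were called with aFGF over DMSO, 0 up and 3 down, where 11.4% of all probe sets were called and 6.43% were called down. Their median change was -0.19, against 0.00 over all probe sets. With AZD4547 and aFGF over aFGF, 4 of 15 were called, 4 up and 0 down, where 20.6% of all probe sets were called and 11.8% were called up. Their median change was 0.26, against -0.02 over all probe sets. The probe sets of 1 gene share their RNA, and the 7 calls fall on MSH6 and PMS1 only.

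Groups did not overlap in 10 of the 15 probe sets with aFGF over DMSO, where 48.0% of all probe sets had that pattern, and in 12 of 15 with AZD4547 and aFGF over aFGF, where it was 57.7%. Both comparisons use the same aFGF arrays, so a low value in those arrays enters both with opposite sign. The plot of changes shows this mirror pattern beside the third comparison.

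**Figure D2:**
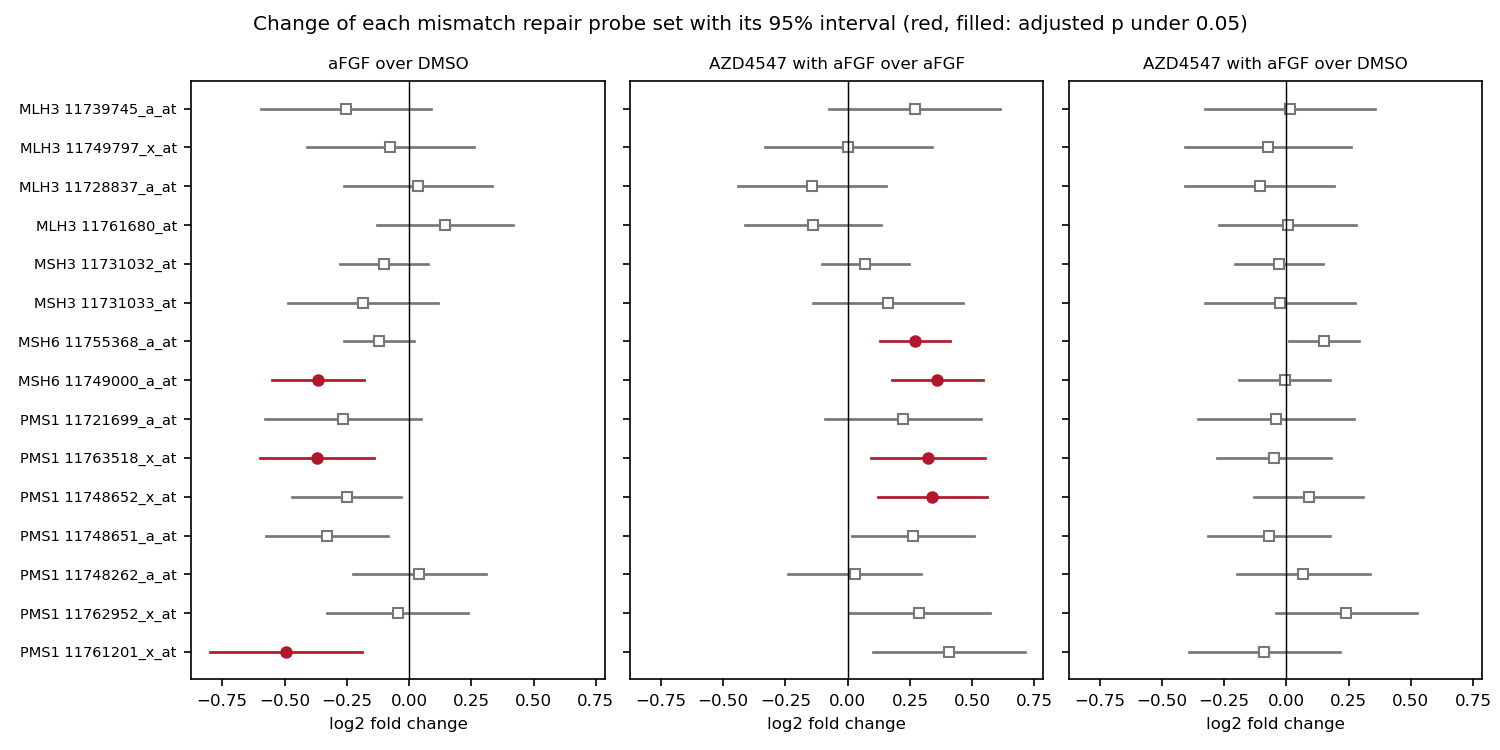
Log2 fold change (horizontal axis) of each mismatch repair probe set (vertical axis) in the 3 comparisons, with its 95% interval from limma. Filled red points are called, which are 3 for aFGF over DMSO, 4 for AZD4547 with aFGF over aFGF and 0 for AZD4547 with aFGF over DMSO.

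The comparison of AZD4547 and aFGF over DMSO takes no mean from the aFGF arrays. In it 0 of the 15 probe sets were called by limma, where 2.49% of all probe sets were, and 1 had an unadjusted p under 0.05. That one was MSH6 on 11755368_a_at, with a change of 0.15 (SE 0.06, limma adjusted p = 0.276). The MSH6 probe set 11749000_a_at changed by -0.01 (95% interval -0.19 to 0.18) and the brighter MSH3 probe set by -0.03 (95% interval -0.20 to 0.15). The median change was -0.03, against -0.01 over all probe sets, and groups did not overlap in 3 of 15 probe sets where 42.4% of all probe sets had that pattern. A missing call does not show that the levels were alike.

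The authors' deposited table gives a ratio and a p-value of its own for each group over DMSO, by a test that no source used here names. For aFGF over DMSO the authors' deposited table lists p under 0.05 for 2 of the 15 probe sets, MSH6 on 11755368_a_at (ratio 0.920, p = 0.0364) and PMS1 on 11761201_x_at (ratio 0.708, p = 0.00280), and for 13.8% of all probe sets. In the authors' deposited table MSH6 on 11749000_a_at has a ratio of 0.773 with p = 0.128, so the MSH6 probe set under 0.05 is there the other one. For AZD4547 with aFGF over DMSO the authors' deposited table lists 1 of 15, PMS1 on 11762952_x_at (ratio 1.18, p = 0.0325), and 8.73% of all probe sets. The authors' deposited table has no ratio of AZD4547 with aFGF over aFGF.

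In the fit of all 6 arrays, the other genes listed for mismatch repair moved in the same directions as MSH6 where they were called. The genes called up over aFGF kept positive changes whichever array was left out, the lowest being 0.16 for POLD2. A fall called over aFGF without AZD4547 replicate 1 was that of a gene not called in the fit of all 6 arrays. The list holds 19 genes, each by its brightest probe set: genes that excise, protect and refill the strand, and the meiotic MutS homologs MSH4 and MSH5. With aFGF over DMSO, 5 of 19 fell and 0 rose, where 13.6% of all represented genes were called and 8.42% were called down, and the median was -0.19 against -0.01. With AZD4547 and aFGF over aFGF, 10 rose and 0 fell, where 23.9% were called and 14.6% were called up, and the median was 0.20 against -0.02. Brighter probe sets were called more often. A fit of the 24647 brighter ones alone held 17 of the 19 genes. In it 8 of the 17 were called with aFGF over DMSO, where 6426 of its probe sets were. With AZD4547 and aFGF over aFGF 10 of the 17 were called, where 10417 of its probe sets were. The part of brightness was not tested.

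RFC4, a subunit of the clamp loader, had 7.54 and 7.51 with AZD4547 and aFGF, 6.98 and 6.98 with aFGF, and 7.41 and 7.37 with DMSO. It rose by 0.54 with AZD4547 and aFGF over aFGF (SE 0.06, limma adjusted p = 4.1e-05) and fell by 0.41 with aFGF over DMSO (SE 0.06, limma adjusted p = 8.0e-04). Both calls of RFC4 were kept in 6 of 6 runs that left out 1 array. PCNA, the sliding clamp, had 9.67 and 9.62, 9.22 and 9.31, and 9.50 and 9.56 in the AZD4547, aFGF and DMSO arrays. It rose by 0.38 with AZD4547 and aFGF over aFGF (SE 0.05, limma adjusted p = 2.9e-04). It fell by 0.27 with aFGF over DMSO (SE 0.05, limma adjusted p = 0.00659), a call lost without either aFGF array.

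EXO1, the exonuclease of the reaction, had 6.00 and 5.89 with AZD4547 and aFGF, 5.68 and 5.63 with aFGF, and 5.96 and 5.91 with DMSO. Its aFGF arrays lay below the other 4, with changes of 0.29 (SE 0.07, limma adjusted p = 0.0125) over aFGF and -0.28 (SE 0.07, limma adjusted p = 0.0287) for aFGF over DMSO. The first was lost in 3 of 6 runs without 1 array, namely either aFGF array or AZD4547 replicate 1, and the second in 5 of 6, all but DMSO replicate 2. RFC1, the large subunit of the clamp loader, and RPA1, the large subunit of RPA, rose by 0.48 and 0.28 with AZD4547 and aFGF over aFGF and fell by 0.23 and 0.19 with aFGF over DMSO. Their falls were lost in 5 of 6 such runs each, all but DMSO replicate 2, and the rise of RPA1 without aFGF replicate 1 (limma adjusted p = 0.0564).

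The other rises with AZD4547 and aFGF over aFGF were those of the polymerase delta subunits POLD3 (0.52), POLD1 (0.40) and POLD2 (0.20), of RPA3 (0.26) and of RFC5 (0.25). POLD2 was read on 11757482_x_at, whose probes can match other transcripts. POLD3, RFC1 and PCNA kept the call in 6 of 6 runs without 1 array. POLD1 lost it without aFGF replicate 2 or either AZD4547 array, and POLD2, RPA3 and RFC5 lost it without any 1 of the 4 arrays of the comparison. RFC2, RFC3, RPA2, RPA4, POLD4, the ligase LIG1, HMGB1, MSH4 and MSH5 were not called in either comparison, and RPA4 (1.01 to 1.79) and MSH4 (0.41 to 0.86) were under the median of all probe sets.

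With AZD4547 and aFGF over DMSO, 0 of the 19 genes were called by limma, where 3.18% of all represented genes were, and 4 had an unadjusted p under 0.05. These were RFC1 (0.25, limma adjusted p = 0.0728), POLD3 (0.27, limma adjusted p = 0.104), RFC4 (0.14, limma adjusted p = 0.270) and RPA4 (-0.45, limma adjusted p = 0.272). Most genes of the list also act in DNA replication, and the share of cells in S phase was not measured.

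**Figure D3:**
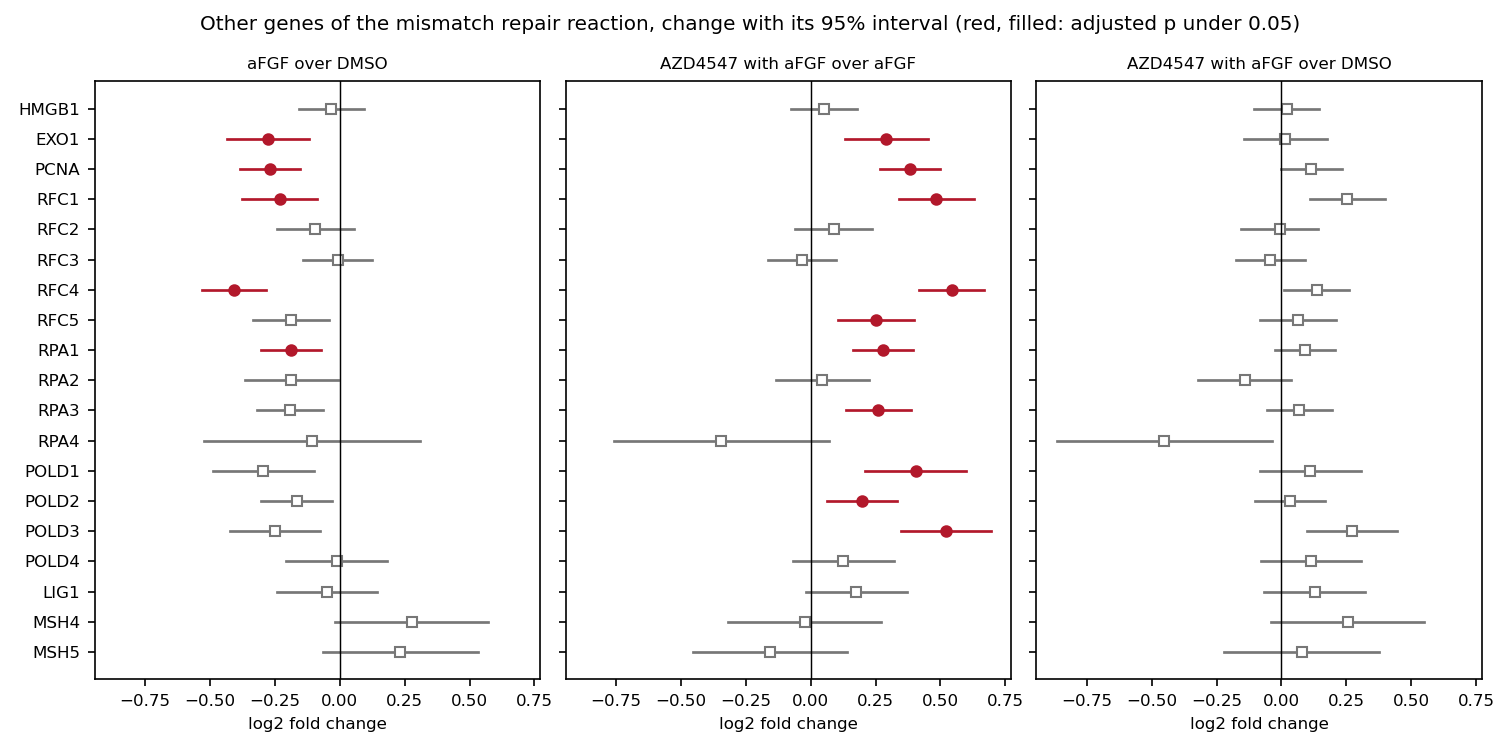
Log2 fold change (horizontal axis) with its 95% interval for 19 further genes (vertical axis) in the 3 comparisons. They are genes of the mismatch repair reaction and the meiotic MutS homologs MSH4 and MSH5. Filled red points are called: 5 below 0 for aFGF over DMSO, 10 above 0 for AZD4547 with aFGF over aFGF, and 0 for AZD4547 with aFGF over DMSO.

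DNA glycosylases, which start base excision repair of damaged or misplaced bases, were called at shares near those of all represented genes. Of 11 measured, 3 were called with AZD4547 and aFGF over aFGF (23.9% of all represented genes) and 1 with aFGF over DMSO (13.6%). Over aFGF 2 rose and 1 fell: NEIL3, which removes oxidised bases (0.34, SE 0.09), MPG, which removes alkylated bases (0.27, SE 0.07), and TDG, which removes thymine from G:T mispairs (-0.27, SE 0.08). MPG was read on 11726721_x_at, whose probes can match other transcripts. TDG was the 1 gene called with aFGF over DMSO, with a rise of 0.38 (SE 0.08, limma adjusted p = 0.0106), and stood at 7.01 and 6.89 with AZD4547 and aFGF, 7.22 and 7.22 with aFGF, and 6.72 and 6.96 with DMSO. TDG was thus highest in the aFGF arrays, where MSH6 was lowest. With AZD4547 and aFGF over DMSO, 0 of 11 were called by limma (3.18% of all represented genes) and 1 had an unadjusted p under 0.05. Each of the 3 calls over aFGF was lost without any 1 of the 4 arrays of the comparison, and that of TDG over DMSO without either aFGF array. The glycosylase calls with aFGF over DMSO changed in number and direction with the array left out. Calls over all probe sets varied too, and both ranges are given in the last paragraph.

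Beside PMS1 and PMS2 in RefSeq of GRCh38.p14, a gene on the opposite strand starts close to their own start. ORMDL1, a regulator of sphingolipid synthesis, starts 111 bases from PMS1, and AIMP2, a scaffold of the aminoacyl-tRNA synthetase complex, starts 166 bases from PMS2. AIMP2 had 7.50 and 7.56 with AZD4547 and aFGF, 7.93 and 7.97 with aFGF, and 7.77 and 7.82 with DMSO. AIMP2 fell by 0.42 with AZD4547 and aFGF over aFGF (SE 0.06, limma adjusted p = 2.4e-04) and by 0.26 with AZD4547 and aFGF over DMSO (SE 0.06, limma adjusted p = 0.0365), with 2 of 2 probe sets called down in each. The call over DMSO was lost without any 1 of the aFGF or AZD4547 arrays. ORMDL1 averaged 5.16 ± 0.22 with AZD4547 and aFGF, 5.27 ± 0.07 with aFGF and 5.28 ± 0.14 with DMSO (SD, n = 2 each), with overlapping groups and no call.

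**Figure D4:**
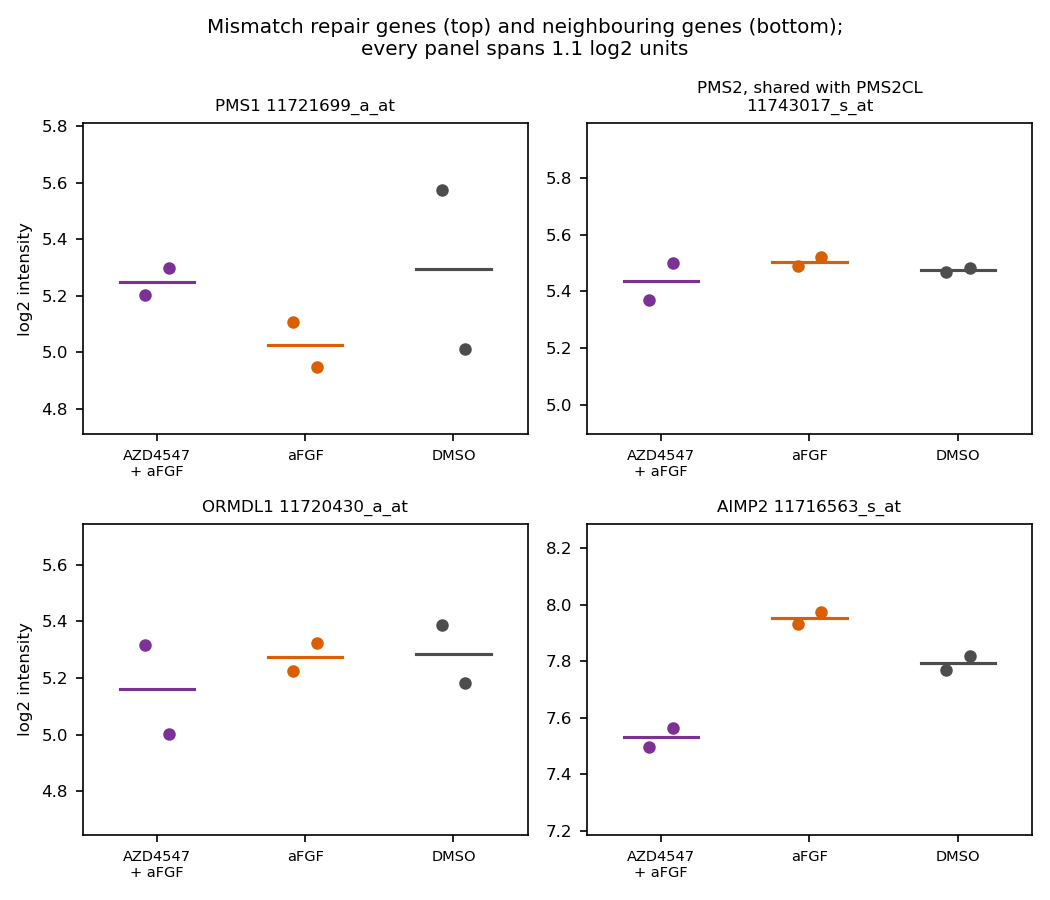
Log2 intensity in the 6 arrays for PMS1 and a probe set shared by PMS2 and PMS2CL (top). The genes beside them, ORMDL1 and AIMP2, are at the bottom. The vertical axes have the same width, but each is centred on its own values. Points are arrays and lines are means of 2. AIMP2 was lowest with AZD4547 and aFGF and highest with aFGF. The PMS1 probe set shown, 11721699_a_at, the PMS2 probe set and ORMDL1 were not called.

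The genes whose values followed MSH6 (11755368_a_at) most closely over the 6 arrays were PPCS, an enzyme of coenzyme A synthesis (r = 0.9972), PTER (r = 0.9971) and PHF6, a chromatin protein (r = 0.9956). They were searched among 9517 genes brighter than the median gene, of which 360 had r over 0.95, and the 6 arrays fall into 3 groups, so the values are a description only. PHF6 averaged 6.74 ± 0.12 with AZD4547 and aFGF, 6.21 ± 0.01 with aFGF and 6.49 ± 0.08 with DMSO (SD, n = 2 each).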

How the data were processed

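Total RNA of 6 cultures was measured on Affymetrix arrays, from 500 ng of RNA labelled with biotin, per the labels' protocols. The deposited values are intensity values on a linear scale (0.75 to 6344.2), made by the authors with RMA, per the submitters' processing notes. RMA corrects background, normalises by quantiles and summarises probes. No source used here gives the version, the array type or the return to a linear scale. The deposited table also holds the authors' ratio of each aFGF group over DMSO and a p-value. The deposited values per sample were the same in both tables (largest difference 0), and 0 columns of other samples were found. Log2 was taken with no pseudocount.

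limma 3.58.1 (R 4.3.3) was fitted to all 49293 probe sets and 6 arrays with a group mean each, eBayes with an intensity trend, 3 contrasts and Benjamini-Hochberg adjustment. No filter was applied. Of the probe sets, 47340 had 1 symbol, 1457 several and 496 none; Entrez identifiers matched 47089 to the RefSeq table and changed 5313 symbols. Other genes were represented by the brightest probe set with their symbol alone (19040 genes), and promoters by gene symbol, which matched 5 of 5. The median SE of a log2 change was 0.13, and the number of arrays limits the precision. The fit was tested on simulated arrays.

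The genes and lists were chosen with earlier results of these data known. Every probe set of the 5 genes was reported, together with the called list genes, genes starting within 1000 bases of them, the 3 closest profiles of a gene called at its brightest probe set, and EGR1 and DUSP6. Results for 1 gene within this rule are left out here. DUSP6, an ERK phosphatase, changed by 0.06 with aFGF over DMSO and by -0.41 with AZD4547 and aFGF over aFGF. Marker lists above the median numbered 3 of 10 (epithelial and endometrial), 2 of 3 (mesenchymal), 0 of 6 (leukocytes), 1 of 5 (endothelium), 1 of 5 (fibroblasts) and 1 of 4 (smooth muscle). The summed linear levels were 13.5 to 14.7 with AZD4547 and aFGF, 13.4 to 15.7 with aFGF and 14.7 to 15.7 with DMSO for leukocytes, 20.3 to 23.2, 22.4 to 24.3 and 20.4 to 20.7 in the same groups for endothelium, and 24.3 to 24.8, 26.7 to 26.8 and 23.6 to 26.2 for smooth muscle. Alternatives left out the trend, dim or _x_at probe sets, other probe sets of a gene or 1 array, centred arrays on their medians, added a pseudocount of 16, took means over probe sets, blocked on the replicate number or used the other table.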

Additional observations from a re-analysis of the deposited data

How the results depend on the processing

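Over 14 settings, the changes of the 15 probe sets gave 561 values, of which 520 kept their call or lack of one, 37 lost a call and 4 gained one. In 0 values did the sign reverse with a call in either fit. A change of sign without a call was counted among the 520. Without the intensity trend the member calls were 1 with aFGF over DMSO and 1 with AZD4547 and aFGF over aFGF, against 3 and 4, and the pathway calls 1 and 5, against 5 and 10. Neither MSH6 probe set was then called (limma adjusted p = 0.0789 and 0.0519 over aFGF, and 0.0877 for 11749000_a_at with aFGF over DMSO). With arrays centred on their medians, 1 member and 2 pathway genes were called with aFGF over DMSO, where 5301 of 49293 probe sets were. Without dim probe sets, 8 of 17 pathway genes were called with aFGF over DMSO, where 6426 of 24647 probe sets were. With AZD4547 and aFGF over DMSO it was 1 of 17, where 1964 probe sets were called. With 1 probe set per gene the same counts were 8 and 1 of 19, where 2979 and 892 of 19040 genes were called. Of 4 members, 0 were then called with aFGF over DMSO. With AZD4547 and aFGF over aFGF 1 of 4 was, where 4894 of all genes were. Without _x_at probe sets the member counts in these 2 comparisons were 1 and 2 of 10, where 4591 and 8311 of 41383 probe sets were called. The last 3 settings hold fewer probe sets, and the cause of these shifts was not tested.

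Leaving out 1 array gave 0 to 4 member calls with aFGF over DMSO, 0 to 4 with AZD4547 and aFGF over aFGF and 0 with AZD4547 and aFGF over DMSO. The pathway calls ran from 1 to 7, 5 to 10 and 0 to 1 in these comparisons, and the glycosylase calls from 0 to 4 and 0 to 3 in the first 2 and were 0 in the third, against 1, 3 and 0. Without the trend 0 glycosylases were called in the first and 0 in the second comparison. Over all probe sets, calls without 1 array ran from 1833 to 6821 (5640 with all arrays), 5618 to 12103 (10178) and 26 to 2824 (1229), and without the trend they were 2304, 7141 and 19. Deviations of arrays with the same replicate number correlated at 0.06, -0.07 and 0.10 between groups. Such values cannot show whether these arrays share more than a number. With the replicate block 3, 4 and 0 members and 5, 10 and 0 pathway genes were called. Over all probe sets the block gave 6037, 10570 and 1584 calls.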
